A study of Homo sapiens with 6 samples.

Results

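The giant cytoskeletal linkers described here are 9 genes with very long mRNAs: UTRN (utrophin), the spectrins SPTAN1 and SPTBN1, the plakins MACF1, DST and PLEC, the nesprins SYNE1 and SYNE2, and the filamin FLNA. They are 9 of the 24945 genes with a count in at least 1 library and 9 of the 14398 genes tested. The members were selected from the IRE1 against control contrast of these same libraries, UTRN for its decrease and the others as long cytoskeletal mRNAs around it, so their fold changes in that contrast are given as a description with no test. The question was how they changed beside other mRNAs of similar length and of different GC content.

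The study asked which mRNAs of myeloma cells are cleaved by IRE1, a sensor of unfolded protein in the endoplasmic reticulum that is also an endoribonuclease. RNA came from H929, an established line of human multiple myeloma, a tumor of plasma cells. In every reaction 5 μg of total RNA stood in cleavage buffer at 37 °C for 1 h and was then heated to 95 °C for 5 min. The 3 IRE1 reactions also held 2 μg of a recombinant form of the human protein that spans amino acids 467 to 977, the 3 control reactions held none, and poly(A)-containing RNA was then sequenced. The RNA was cleaved outside the cell, so the libraries hold no response of living cells. The p-values measure the spread between these 6 libraries of 1 cell line.

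Counts on genes were 25678499, 22433916 and 21144515 in control replicates 1, 2 and 3, and 19615715, 21525644 and 23041598 in IRE1 replicates 1, 2 and 3. IRE1 replicate 1 stood apart from the other libraries of its group: the chi-square per gene between it and IRE1 replicates 2 and 3 was 7.03 and 10.9, against 3.39 between those 2 and 2.21 to 3.07 between controls. IRE1 replicate 3 was in turn nearer to the controls, at 7.96 to 10.1, than to IRE1 replicate 1. Fold changes of the members are also given without IRE1 replicate 1, and their range over every left-out library is given at the end. All 8 plasma cell markers were present, from 408 counts for CD38 to 102846 for JCHAIN. The T cell gene CD3D had at most 1 count and the epithelial gene EPCAM at most 2, although CD3E had 890 to 1063 counts and KRT18 1147 to 1350.

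Giant linkers hold the cytoskeleton to membranes, to adhesion sites and to the nucleus. Most of them bind actin at one end and carry long rows of repeated helices, and their coding sequences are among the longest in the genome. Utrophin is the widely expressed relative of dystrophin, spectrins form the mesh under the plasma membrane, plakins join different filament systems, nesprins span the outer nuclear membrane and filamin crosslinks actin.

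IRE1 is known to cleave RNA after the third base of a CTGCAG motif held in the loop of a hairpin. A match to the motif describes the letters of a transcript; it is neither a shown cleavage site nor a cause of any change. Of the 12225 tested protein-coding genes, 86.7% held CTGCAG in their longest coding transcript, and so did 99.1% of the 566 genes with a transcript of at least 10000 bases. In UTRN 9 matches were found, and 2 of them placed base 3 of the motif unpaired in a predicted hairpin loop of 5 to 11 bases. These 2 windows of UTRN are shown with 1 window each of SYNE1 and SYNE2. Both loop sites of FLNA, the member with the most counts, are also shown. The SYNE1 and SYNE2 windows had 24 of 30 bases in common, the most among the compared pairs of predicted loop sites from different members. The motif is part of every window, so its 6 bases match in every pair, and no PLEC window was compared. Each window is the sense strand on GRCh37, 5′ to 3′, in lower case with the motif in capitals. All 6 lie in coding sequence.
UTRN exon 7 of 75: gtcatgtcggacCTGCAGcagacgaacagt
UTRN exon 55 of 75: ctcattgactcgCTGCAGgatcacattgaa
SYNE1 exon 135 of 146: acagagatggatCTGCAGctcactaatatt
SYNE2 exon 104 of 116: acagagatggacCTGCAGctgaccaacgtg
FLNA exon 2 of 48: cgcatcgccaacCTGCAGacggacctgagc
FLNA exon 38 of 48: acacctttgagcCTGCAGagtttatcattg
The UTRN motifs are at chr6:144747456-144747461 and chr6:145069624-145069629 on the plus strand. The SYNE1 motif is at chr6:152472748-152472753 on the minus strand and the SYNE2 motif at chr14:64678751-64678756 on the plus strand. The FLNA motifs are at chrX:153599410-153599415 and chrX:153581396-153581401 on the minus strand.

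UTRN (ENSG00000152818, chr6:144606471-145174170, plus strand) links actin to the dystroglycan complex of the membrane. Its longest coding transcript has 12918 bases in 75 exons and a GC content of 43.3%. Raw counts were 315, 295 and 232 in control replicates 1, 2 and 3 and 91, 124 and 155 in IRE1 replicates 1, 2 and 3. After scaling for library size and composition the normalized counts were 265.8, 283.9 and 238.3 in the controls and 109.0, 130.8 and 150.2 in the IRE1 libraries. Every IRE1 library was below every control, with IRE1 replicate 1 the lowest of the 6. The mean of the IRE1 libraries was 130.0 ± 20.6 (SD, n = 3) against 262.7 ± 23.0 (SD, n = 3) in the controls, which is 49.5% of the control value. The log2 fold change of UTRN was −1.01 ± 0.12 (SE, 3 against 3 libraries), and −0.90 without IRE1 replicate 1. At 100 or more normalized counts on average stood 10293 tested genes, of which 4 had a lower log2 fold change than UTRN. Over all tested genes, at any count, 48 were lower than UTRN.

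**Figure D1:**
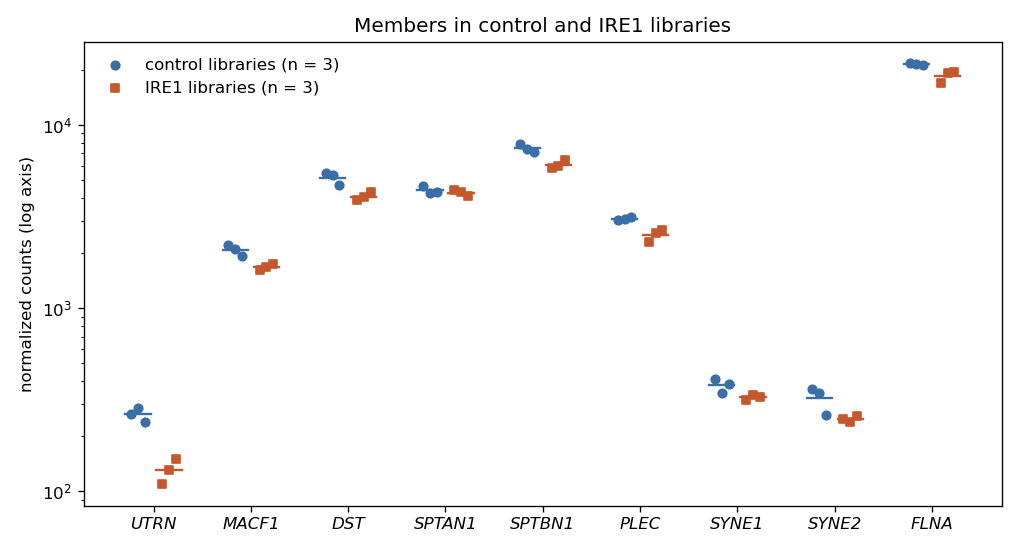
Normalized counts of the 9 members on a log axis, in 3 control libraries (circles) and 3 IRE1 libraries (squares), with a short line at each group mean. The groups are apart for every member but SPTAN1, and the gap is widest for UTRN, at 238.3 to 283.9 in the controls and 109.0 to 150.2 in the IRE1 libraries.

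The spectrins form long heterodimers, of which SPTAN1 is the alpha and SPTBN1 a beta subunit. SPTAN1 (ENSG00000197694, chr9:131314837-131395941) had 4626, 4267 and 4325 normalized counts in the controls and 4425, 4303 and 4076 in the IRE1 libraries. These ranges overlapped, and the log2 fold change was −0.05 ± 0.05 (SE, 3 against 3 libraries). It was −0.07 without IRE1 replicate 1 and −0.0087 without IRE1 replicate 3. SPTBN1 (ENSG00000115306, chr2:54683454-54898583) had 7912, 7447 and 7149 normalized counts in the controls and 5857, 5983 and 6429 in the IRE1 libraries. Its groups did not overlap, and its log2 fold change was −0.30 ± 0.05 (SE, 3 against 3 libraries), and −0.27 without IRE1 replicate 1. Both subunits were thus measured at high counts, and the ranges of the 2 groups overlapped for SPTAN1 and not for SPTBN1. With the length trend removed SPTAN1 was at 0.19 ± 0.06 and SPTBN1 at −0.03 ± 0.04 (SE). SPTAN1 and SPTBN1, like MACF1, SYNE1 and FLNA, share exon bases with annotated genes on the opposite strand, and since the strand setting of the counting was not given, reads of those genes could not be told apart from theirs. No such overlap is annotated for UTRN, DST, PLEC and SYNE2.

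MACF1 and DST are spectraplakins, which bind both actin and microtubules, and PLEC (plectin) ties intermediate filaments to actin and to adhesion sites. MACF1 (ENSG00000127603, chr1:39546988-39952849) had 2222, 2113 and 1927 normalized counts in the controls and 1610, 1673 and 1750 in the IRE1 libraries. DST (ENSG00000151914, chr6:56322785-56819628) had 5498, 5322 and 4695 normalized counts in the controls and 3897, 4034 and 4286 in the IRE1 libraries. PLEC (ENSG00000178209) had 3019, 3065 and 3153 normalized counts in the controls and 2311, 2564 and 2660 in the IRE1 libraries. In all 3 plakins every IRE1 library was below every control, and IRE1 replicate 1 was the lowest library. The log2 fold changes of MACF1, DST and PLEC, each with 3 against 3 libraries, were −0.32 ± 0.06, −0.34 ± 0.06 and −0.29 ± 0.05 (SE), and without IRE1 replicate 1 they were −0.28, −0.31 and −0.23. With all libraries these 3 values lay within 1 SE of each other, while the GC content of the transcripts was 46.0% for MACF1, 41.6% for DST and 67.0% for PLEC.

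The nesprins anchor the nucleus to the cytoskeleton and have the largest exon numbers of the members, 146 in SYNE1 and 116 in SYNE2. SYNE1 (ENSG00000131018, chr6:152442822-152958936) had 412.7, 345.5 and 387.3 normalized counts in the controls and 316.1, 335.4 and 325.7 in the IRE1 libraries. SYNE2 (ENSG00000054654, chr14:64228617-64693151) had 363.7, 343.6 and 260.9 normalized counts in the controls and 247.8, 238.3 and 256.8 in the IRE1 libraries. Both were lower in every IRE1 library than in every control, by a narrow gap: the lowest SYNE1 control and the highest SYNE1 IRE1 library were at 345.5 and 335.4, and those of SYNE2 at 260.9 and 256.8. The log2 fold changes were −0.23 ± 0.09 for SYNE1 and −0.39 ± 0.11 for SYNE2 (SE, 3 against 3 libraries each), and −0.21 and −0.39 without IRE1 replicate 1. With at most 489 counts in any library, the nesprins and UTRN were measured less precisely than the other members.

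FLNA (ENSG00000196924, chrX:153576892-153603002), which crosslinks actin filaments into networks and binds integrins, had 21709, 21692 and 21177 normalized counts in the controls and 16889, 19361 and 19401 in the IRE1 libraries. IRE1 replicate 1 lay well below the other IRE1 libraries, and all 3 were below the controls. The log2 fold change of FLNA was −0.21 ± 0.05 (SE, 3 against 3 libraries), and −0.15 without IRE1 replicate 1.

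All 9 members passed the filter on low counts. Their log2 fold changes were all below 0, with a median of −0.30 against 0.00 over the 14398 tested genes. Once the trend with transcript length was removed, SPTAN1 was above 0, at 0.19 ± 0.06 (SE). PLEC, SYNE1 and FLNA were then at 0.0045 ± 0.051, 0.063 ± 0.092 and 0.025 ± 0.044 (SE), each within 1 SE of 0. In 8 of the 9 members every IRE1 library was below every control, which held for 20% of all tested genes. Because this contrast chose the members, nothing is read from this count. Over all genes 1781 were lower and 1489 higher in the edgeR test at an adjusted p under 0.05. With library size alone as the scaling these became 2596 lower and 683 higher. They were 972 lower and 709 higher without control replicate 1, 992 and 638 without control replicate 2, 1089 and 893 without IRE1 replicate 2, and 1360 and 947 without control replicate 3.

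Levels can be compared between genes only per length. As CPM (counts scaled to a fixed library total) per kilobase of the longest transcript, the control means were 113.9 ± 1.60 for FLNA, 33.0 ± 1.69 for SPTBN1, 24.1 ± 1.06 for SPTAN1, 9.42 ± 0.77 for DST, 9.09 ± 0.20 for PLEC and 3.86 ± 0.28 for MACF1 (SD, n = 3 each). The 3 lowest levels on this scale were 0.92 ± 0.08 for UTRN, 0.66 ± 0.11 for SYNE2 and 0.62 ± 0.06 for SYNE1 (SD, n = 3 each). The control ranges of DST and PLEC overlapped, as did those of SYNE2 and SYNE1, and all other neighbors in this order were apart. In the IRE1 libraries the level of UTRN was 0.45 ± 0.07 (SD, n = 3), beside 0.51 ± 0.02 for SYNE2 and 0.53 ± 0.02 for SYNE1. The range of UTRN, 0.38 to 0.52, overlapped those of both nesprins. Shorter coding transcripts are annotated for every member, down to 572 bases for UTRN, and which of them the cells used was not measured.

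Across the 12225 tested protein-coding genes the log2 fold change went down with transcript length (Spearman −0.63, across genes that share the same 6 libraries and are not independent). With GC content it had a Spearman correlation of 0.25, and 0.07 once length was held constant by partial ranks. That partial correlation was not alike in single libraries: for deviations from the control mean it was 0.11, 0.17 and −0.13 in IRE1 replicates 1, 2 and 3 and −0.17, −0.13 and 0.30 in control replicates 1, 2 and 3. The control deviations of each gene cancel out, so differing signs among the controls largely follow from this centering. Among the 566 genes with transcripts of at least 10000 bases, which include UTRN and 6 other members, the correlation was 0.02 with length and 0.08 with GC content. Their median log2 fold change was −0.26 (quartiles −0.42 and −0.11), and 45.8% of them were lower and 1.94% higher in the edgeR test. UTRN lay far outside these quartiles, with 6 of the 566 genes below it.

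**Figure D2:**
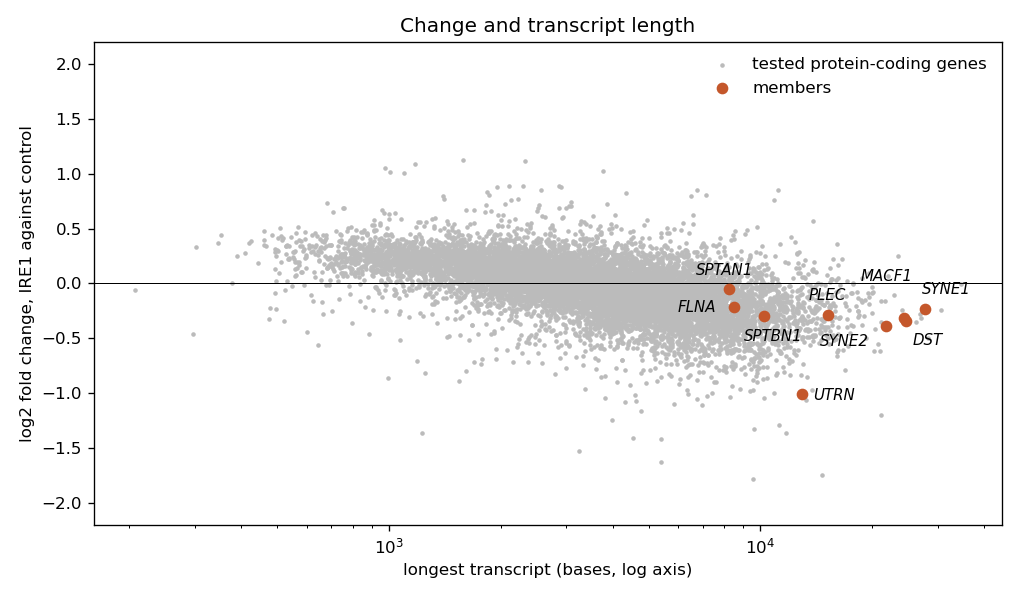
Log2 fold change of 12225 tested protein-coding genes (gray) against the length of the longest transcript on a log axis, with the 9 members labeled. The members other than UTRN lie between −0.39 and −0.05, and UTRN lies at −1.01.

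The comparison at similar length and different GC content used 5 classes of each. In the class of at least 10000 bases, the median log2 fold change was −0.26 under 40% GC, −0.32 at 40 to 45%, −0.28 at 45 to 50%, −0.22 at 50 to 55% and −0.19 at 55% or more, over 162, 165, 115, 70 and 54 genes. Under 2000 bases the medians of the 5 GC classes ran from 0.16 to 0.21. Within each GC class the medians under 2000 and at 10000 bases or more thus lay further apart than the 5 GC classes of either length. This does not hold between the 2 longest classes, which contain the members: at 7000 to 10000 bases the medians in the same order of GC were −0.28, −0.24, −0.25, −0.21 and −0.22.

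Set beside its own class, UTRN was 0.68 below the median on the log2 scale (−1.01 against −0.32), and 4 of the 165 genes of the class were lower. DST and SYNE2 belong to the same class, at 74 and 64 genes below them of 165. MACF1 and SYNE1, at 45 to 50% GC, had 49 and 69 of 115 genes below them. SPTBN1 had 24 of 70 and PLEC 16 of 54 genes of its class below it. In the class of 7000 to 10000 bases FLNA had 70 of 135 genes below it, and SPTAN1 119 of 150, against a class median of −0.21. The values of MACF1, DST, SPTBN1, PLEC, SYNE1, SYNE2 and FLNA were within the quartiles of their classes, UTRN was below and SPTAN1 above.

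**Figure D3:**
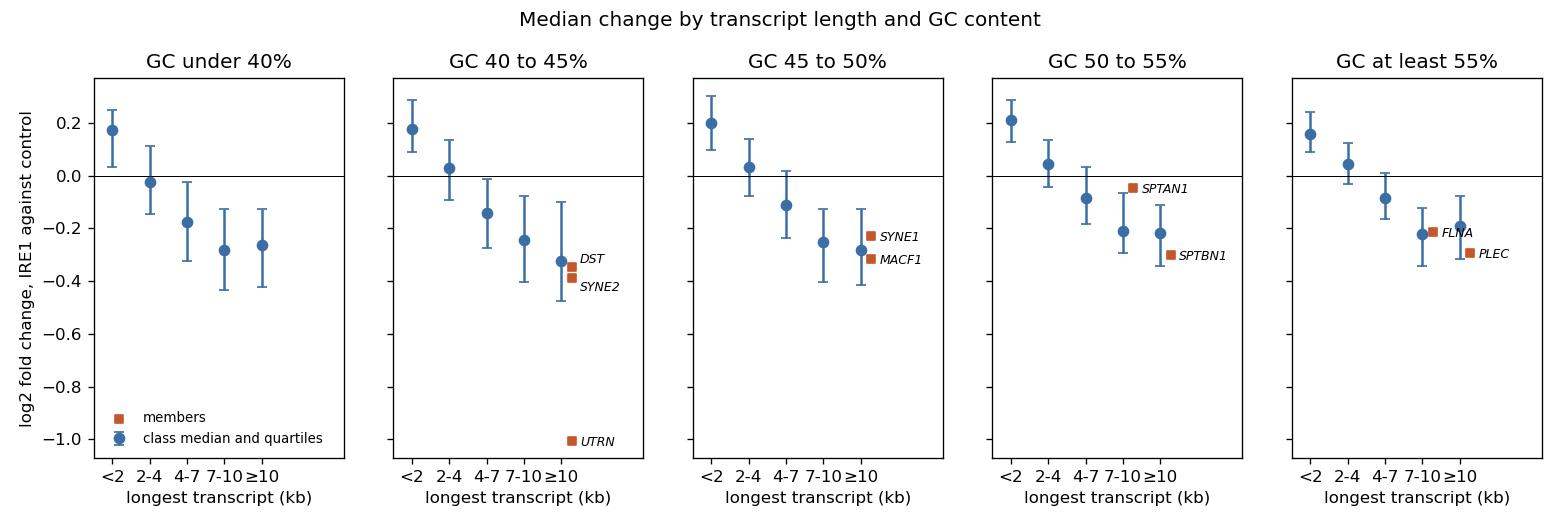
Median log2 fold change with quartiles (circles and bars) of tested protein-coding genes in 5 classes of transcript length, 1 panel for each class of GC content, with the members as squares beside their class. Medians go down with length in every panel up to 10 kb, and UTRN, at −1.01, lies below the quartiles of its class.

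When a smooth trend with GC content was taken out of each library, the log2 fold change of UTRN was −0.95 ± 0.12 (SE) and those of the other 8 members lay between −0.33 and −0.08. When the trend with transcript length was taken out, UTRN was at −0.72 ± 0.11 (SE) and the other 8 lay between −0.08 and 0.19, with SPTAN1 the highest. With both trends out, UTRN was at −0.71 ± 0.11 (SE) and the others between −0.07 and 0.16. The median of the 9 members, −0.30 with no trend removed, was −0.28, −0.01 and −0.01 in these 3 fits. UTRN was the lowest member in each of them. Among genes averaging 100 or more normalized counts, those with a lower log2 fold change than UTRN numbered 6 with the GC trend out, 14 with the length trend out and 15 with both out.

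**Figure D4:**
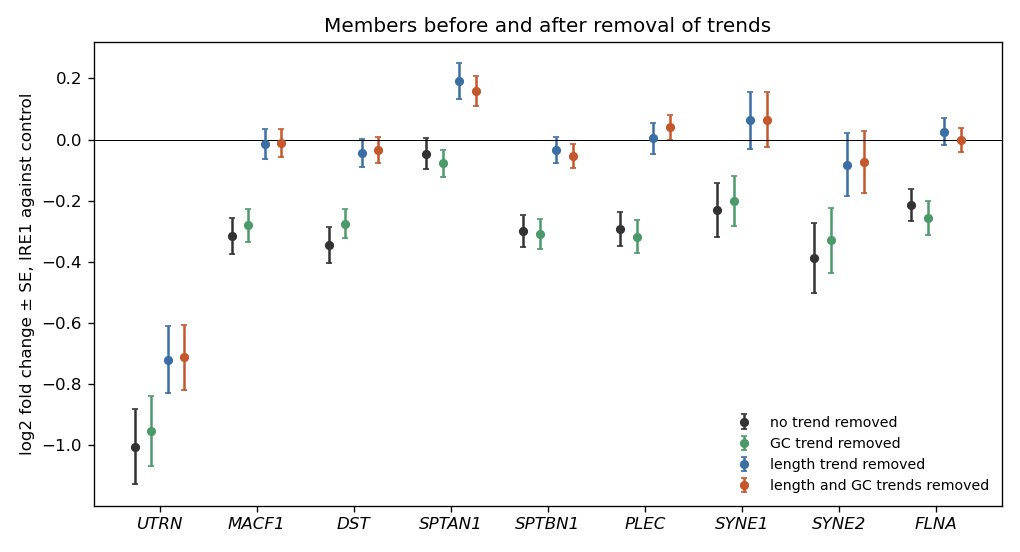
Log2 fold change with SE of each member from 3 control and 3 IRE1 libraries, with no trend removed and with the trends of GC content, transcript length or both removed. Removing the length trend brought the 8 members other than UTRN to between −0.08 and 0.19 and left UTRN at −0.72.

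The length trend differed in size between libraries. Relative to the mean of the controls, the median log2 deviation of transcripts of at least 10000 bases was −0.33, −0.27 and −0.19 in IRE1 replicates 1, 2 and 3, and that of transcripts under 2000 bases was 0.23, 0.19 and 0.12. The 8 members other than UTRN had median deviations of −0.36, −0.29 and −0.22 in these libraries, and UTRN had −1.25, −0.99 and −0.79. In the controls the long transcripts deviated by 0.04, 0.02 and −0.06 and UTRN by 0.02, 0.12 and −0.14. UTRN, the median of the other 8 members and the median of long transcripts thus all had their lowest value in IRE1 replicate 1; the part of RNA integrity in this was not tested.

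**Figure D5:**
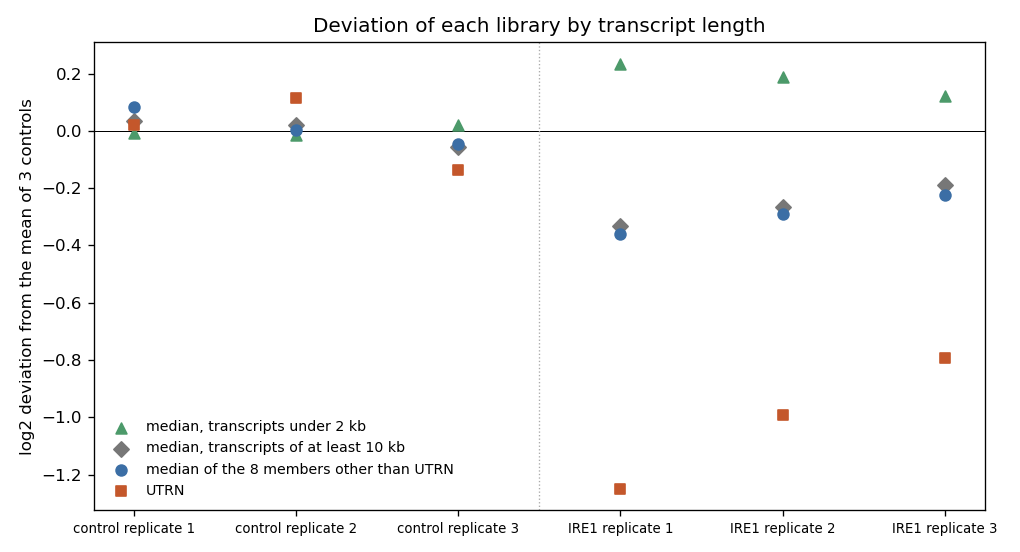
Log2 deviation from the mean of 3 controls in each library, as medians over transcripts under 2 kb, transcripts of at least 10 kb and the 8 members other than UTRN, and for UTRN itself. The median of the members other than UTRN lies near that of the long transcripts (−0.36 and −0.33 in IRE1 replicate 1), and UTRN lies lower in every IRE1 library.

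Density of the CTGCAG motif differed widely among the members. PLEC held 55 matches, or 3.61 per 1000 bases, and SPTAN1 16, or 1.94 per 1000 bases, against a median of 0.70 over tested protein-coding genes. UTRN, at 0.70 per 1000 bases, was at that median, and DST was the lowest member at 0.65; both were above the median of 0.60 for transcripts of at least 10000 bases. Predicted loop sites numbered 14 in PLEC, 6 each in MACF1 and SYNE1, 5 in DST, 3 each in SPTAN1 and SPTBN1, and 2 each in UTRN, SYNE2 and FLNA. These numbers are not per length, and their relation to the fold changes was not tested.

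The 5 genes closest to UTRN over the 6 libraries, by Euclidean distance of log2 deviations among genes averaging 100 or more normalized counts, were TRIM56 (distance 0.22), MRTFB (0.24), SPIN4 (0.25), ABCA1 (0.26) and TET2 (0.26). Their log2 fold changes ran from −0.995 for TRIM56 to −0.86 for ABCA1. The same deviations give the fold changes, so values near that of UTRN follow from this choice. No other member was among the 5 genes, the next lowest member being at −0.39. SPIN4, at 4105 bases, had the shortest longest transcript of the 5, and TRIM56, at 10910, the longest.

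Among genes with transcripts of at least 10000 bases that averaged 100 or more normalized counts, UTRN was the third lowest, after AAK1 at −1.20 ± 0.13 and NFAT5 at −1.06 ± 0.18 (SE). The 3 highest were LSM8 at 0.38 ± 0.07, C15orf40 at 0.36 ± 0.10 and CMC2 at 0.35 ± 0.09 (SE). Length here is that of the longest annotated coding transcript, and which transcript of these genes the cells used was not measured. By longest transcript 11 of 566 genes of this length were higher in the edgeR test, and by canonical transcript 7 of 529. The known IRE1 substrates BLOC1S1 and XBP1 were measured in the same fit. BLOC1S1, with a transcript of 1229 bases, had 612.5 ± 33.9 normalized counts in the controls and 238.9 ± 33.0 in the IRE1 libraries (SD, n = 3 each), a log2 fold change of −1.37 ± 0.09 (SE; edgeR adjusted p = 1.25e-06, lower in 3 of 3 IRE1 libraries). XBP1 had a log2 fold change of −0.09 ± 0.04 (SE), with an adjusted p of 0.143 in the edgeR test. Its IRE1 libraries were at 54060 to 57255 normalized counts, all below the controls at 58415 to 60995. Counts per gene pool reads from the whole transcript and do not separate the parts before and after a cleavage site.

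Other genes of the same systems were taken from 6 lists by role, 80 genes in all, of which 62 were tested. Of these 62, 19 were lower and 1 higher in the edgeR test, with a median log2 fold change of −0.13, beside 12.4% lower and 10.3% higher over all tested genes. The higher gene was LMNA. With the length trend removed 6 were lower and 1, EPB41L1, was higher, beside 571 lower and 854 higher of the 14111 genes in that fit. By list, the lower genes then numbered 0 in the dystrophin family, 2 in the spectrin skeleton, 1 among plakins and plus-end proteins, 2 among nuclear envelope partners, 1 among filamins and adhesion linkers and 0 among actins and myosins. Leaving out control replicate 1 or control replicate 2 gave 10 and 12 lower genes.

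In the dystrophin family and its complex, 2 of 10 tested genes were lower and none higher. DMD, the muscle relative of UTRN, fell from 317.9 ± 18.4 to 228.4 ± 21.8 normalized counts (SD, n = 3 each), a log2 fold change of −0.47 ± 0.10 (SE; edgeR adjusted p = 0.00313, lower in 3 of 3 IRE1 libraries), but was at −0.18 and not past the threshold with the length trend removed. DAG1, the dystroglycan that utrophin binds, had the most counts of the list and fell by 0.20 on the log2 scale. Without control replicate 1, 2 or 3 or IRE1 replicate 2, or with the length trend removed (−0.039), DAG1 was no longer past the threshold. SGCE, a sarcoglycan, had the highest value at 0.28 ± 0.36 (SE), with a mean of 14.3 normalized counts.

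In the spectrin-based membrane skeleton 4 of 15 tested genes were lower and none higher. TMOD3, which caps the slow end of actin filaments, was lowest at −0.44 ± 0.07 (SE), EPB41L1 highest at 0.01 ± 0.06 and the adducin ADD1 had the most counts, at −0.03 ± 0.04. With the length trend removed TMOD3 was at −0.21 and past the threshold, and EPB41L1 was at 0.25 and past it. Of the other plakins and microtubule plus-end proteins 3 of 8 were lower and none higher. CLASP2, which stabilizes microtubules, was lowest at −0.50 ± 0.10 (SE), MAPRE3 highest at −0.02 ± 0.11, and MAPRE1 had the most counts, at −0.06 ± 0.05. CLASP2 was at −0.29 and past the threshold with the length trend removed.

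Among nuclear envelope partners of the nesprins 3 of 12 were lower and 1 was higher. SYNE3, a shorter nesprin, was lowest at −0.48 ± 0.10 (SE), and was at −0.19 and not past the threshold with the length trend removed. LMNA, which encodes lamins A and C and had the most counts, was the 1 higher gene at 0.14 ± 0.05 (SE), with 14797 to 16462 normalized counts in the IRE1 libraries and 14003 to 14445 in the controls, which did not overlap. LMNA was at 0.07 and not past the threshold with library size only, and at 0.14, also not past it, with the length trend removed. Its call was lost as well with the GC trend removed and without control replicate 1, 2 or 3 or IRE1 replicate 2. SYNE4 had the highest value, at 0.36 ± 0.39 with a mean of 13.1 normalized counts.

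Of the filamins, alpha-actinins and adhesion linkers 5 of 11 were lower and none higher. ITGA4, an integrin alpha chain, was lowest and fell from 5777 ± 196 to 3994 ± 518 normalized counts (SD, n = 3 each), a log2 fold change of −0.53 ± 0.07 (SE), while its partner ITGB7, with both the most counts and the highest value, was at 0.09 ± 0.04. ITGA4 was at −0.34 and past the threshold with the length trend removed. Of the actins, non-muscle myosins and vimentin 2 of 6 were lower and none higher. MYH10 was lowest at −0.21 ± 0.06 (SE), a call lost with the length trend removed (0.021) and without control replicate 1, control replicate 2 or IRE1 replicate 2. MYH14 was highest at 0.33 ± 0.39, and ACTG1, with the most counts, was at 0.01 ± 0.04. The values of ACTG1, MAPRE1, XBP1 and SGCE, for which 21, 3, 1 and 1 pseudogenes are annotated, are uncertain to that extent. So are those of ACTG1, SGCE, TMOD3, SYNE4, ITGA4, ITGB7, MYH10, MYH14 and BLOC1S1, which share exon bases with another annotated gene. The genes nearest to UTRN and the lowest and highest long transcripts other than UTRN were not checked for this.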

How the data were processed

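The authors trimmed reads with cutadapt 1.12, aligned them with STAR 2.5.3a to GRCh37 and deposited raw HTSeq 0.6.1p1 counts per gene. The strand and overlap settings of the counting were not given in the sources used here. Summary lines that name no gene held 21.4 to 23.2% of all counts and were left out. A table of values normalized by the authors, with 6 columns, was not used. Counts were fitted with edgeR 4.0.16 in R 4.3.3 (filter on low counts, TMM scaling, quasi-likelihood test, Benjamini-Hochberg adjustment over 14398 genes, threshold 0.05). Normalized counts are at the scale of the mean library. The fits were tested on simulated data with planted changes, and the motif search on planted hairpins. DESeq2 1.42.0, other scalings and filters, loess trends (span 0.5) and left-out libraries were alternatives. Names, lengths and sequences came from GENCODE 44 on GRCh37, using the longest coding transcript, and loops from RNAfold 2.7.2 with 15 bases on each side of the motif. The members and lists were chosen with earlier results of these data known. The genes named are the members, the lowest, highest and most abundant gene of each related list, the 5 nearest to UTRN, the 3 lowest and 3 highest long transcripts, XBP1 and BLOC1S1. Some genes are named only as cell type markers.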

Additional observations from a re-analysis of the deposited data

How the results depend on the processing

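Of 144 values of the 9 members under 16 alternatives, 115 moved by less than the spread between libraries, 19 moved by more and 10 changed sign, and the cause was not tested. With the length trend removed the log2 fold changes were −0.72 for UTRN, −0.014 for MACF1, −0.043 for DST, −0.034 for SPTBN1, −0.082 for SYNE2, and, on the other side of 0, 0.19 for SPTAN1, 0.0045 for PLEC, 0.063 for SYNE1 and 0.025 for FLNA, with a median of −0.014. All of these members but UTRN and SPTAN1 were then within 1 SE of 0. With length and GC trends removed they were −0.71 for UTRN, −0.011 for MACF1, −0.033 for DST, −0.053 for SPTBN1, −0.073 for SYNE2, −0.0017 for FLNA, 0.16 for SPTAN1, 0.040 for PLEC and 0.065 for SYNE1, with a median of −0.011. With library size only, SPTAN1 was at −0.12, SPTBN1 at −0.38 and the median at −0.38. The same numbers in the titles did not pair the libraries: deviations of control and IRE1 libraries of equal number correlated at −0.04, −0.0050 and −0.11, and none correlated best with its own number. The replicate block gave 1496 lower and 1117 higher genes and 16 lower and 0 higher related genes, and LMNA and DAG1 were not past the threshold. Both trends and the block together gave 521 lower and 836 higher genes, 5 lower related genes, −0.72 for UTRN, −0.0096 for MACF1, −0.032 for DST, 0.16 for SPTAN1, −0.052 for SPTBN1, 0.039 for PLEC, 0.069 for SYNE1, −0.057 for SYNE2, −0.0020 for FLNA and a median of −0.0096, and TMOD3, past the threshold in every other alternative, was not past it. Over all genes, 571 were lower and 854 higher with the length trend removed, and 633 and 972 with both trends removed; library size only gave 683 higher. Related genes numbered 6 lower with the length trend removed, 6 lower and 2 higher with both removed, and 0 higher with library size only or the GC trend removed. Leaving out 1 library gave 972 to 2221 lower genes, 638 to 2091 higher genes, 10 to 21 lower and 0 to 3 higher related genes. The lower count was 972 without control replicate 1, 992 without control replicate 2 and 1089 without IRE1 replicate 2. The higher count was 709, 638 and 893 without these, and 947 without control replicate 3. Related lower genes were 10 and 12 without control replicates 1 and 2; related higher genes were 0 without any control or IRE1 replicate 2, 2 without IRE1 replicate 1 and 3 without IRE1 replicate 3. Leaving out 1 library gave −1.12 to −0.90 for UTRN, −0.37 to −0.27 for MACF1, −0.41 to −0.30 for DST, −0.07 to −0.0087 for SPTAN1, −0.34 to −0.26 for SPTBN1, −0.33 to −0.23 for PLEC, −0.30 to −0.17 for SYNE1, −0.51 to −0.29 for SYNE2, −0.25 to −0.15 for FLNA and −0.34 to −0.27 for their median. Class medians with library size only were −0.32, −0.33, −0.28 and −0.30 for 7000 to 10000 bases and −0.40, −0.36, −0.29 and −0.26 for at least 10000 bases, from 40 to 45% to at least 55% GC. With GC of the coding sequence the classes of 50 to 55% were at −0.28 and −0.27, and over genes averaging 100 or more normalized counts the class of at least 10000 bases and 55% GC was at −0.22. Motif densities on the canonical transcript stayed within the counting intervals for all 9 members. UTRN, SYNE1 and SYNE2, with at most 489 counts in any library, have the largest errors.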
